A study of Homo sapiens with 6 samples.

Results

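The clustered replication-dependent histone genes encode the bulk histones H1, H2A, H2B, H3 and H4. They were followed on arrays of HEK293 cells, a human embryonic kidney line. Members were all array rows (transcript clusters, each a set of probes for a transcribed locus) with a single gene symbol of the form H2AC, H2BC, H3C or H4C plus digits, or H1-1 to H1-6. These are the current names of the older HIST1, HIST2, HIST3 and HIST4 genes. The rule found 57 rows of 57 genes among 33297 rows: 6 for H1, 14 for H2A, 16 for H2B, 8 for H3 and 13 for H4. A further 20 rows carried the symbols of several genes, at least 1 of them a histone of this kind, and are described apart. They held the remaining 12 of the 69 RefSeq genes that fit the pattern.

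Core histones form the protein spool around which DNA is wrapped: H3 and H4 pair with each other, as do H2A and H2B, and linker histone H1 binds where the DNA enters and leaves. The genes of this group are mostly made in S phase, when new chromatin is assembled, and they lie in clusters, the largest on the short arm of human chromosome 6. Their mRNAs lack introns and usually end in a conserved stem-loop, bound by SLBP, instead of a poly(A) tail. They are degraded quickly when DNA synthesis stops.

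The treatment group had 3 arrays and the control group 3. Their source labels name a Neo vector for treatment cells and a transient vector for control cells. The design text, in contrast, sets cells transfected with the empty plasmid pCMV9 against untreated cells, so the treatment of the control cells is not settled, and the groups are called treatment and control as in the titles. All arrays used HEK293 cells. No label gives a time or dose, or states that replicates were separate cultures, and p-values then reflect array-to-array spread that may be technical. The study asked which mediators accompany an anti-HIV effect of empty vector transfection.

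Of the HEK293 markers, vimentin (VIM) averaged 1085 ± 107 in treatment and 1325 ± 72.7 in control arrays (SD, n = 3 each), and KRT18 and the neurofilament genes NEFL and NEFM were also far from 0. PAX2, a kidney transcription factor gene, was the marker with the lowest p of the 7 measured, averaging 105.5 ± 7.29 in treatment and 56.0 ± 11.1 in control arrays, without overlap (0.76 ± 0.203, SE; limma, adjusted p = 0.328). The leukocyte marker PTPRC averaged 17.1 ± 7.57 and 23.4 ± 3.73 in treatment and control arrays. The summed intensity of 5 measured leukocyte markers was 236 to 339 in treatment and 229.9 to 305 in control arrays. Median intensity was 80.5 to 84.2 in treatment and 77.2 to 81.1 in control arrays. Treatment replicate 3 had the lowest mean correlation with the other arrays (0.963), against 0.972 to 0.978 for the other arrays. All 14 measured genes of a short interferon list rose (limma, adjusted p between 8.88e-07 and 0.00699), with a median log2 change of 3.53. MX1, an antiviral GTPase gene, averaged 1653 ± 232 and 119 ± 36.7 in treatment and control arrays (SD, n = 3 each), and RSAD2 and IFI44 gave changes of 4.59 and 4.11.

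Histone mRNA signal was lower in the treatment arrays across most of the family, by amounts that no single row carried past the adjusted threshold. Of the 57 rows, 53 had a negative change and 4 a positive one. Changes are differences of log2(intensity + 16), treatment minus control, which understate the change of dim rows. Their median was -0.44, beside 0.01 over all rows and -0.05 over rows above the median mean intensity. The histone changes ran from -0.88 for H2BC7 to 0.15 for H2AC16. In bulk RNA, fewer cells in S phase and less histone mRNA per cell cannot be told apart.

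None of the 57 passed limma at an adjusted p under 0.05 (0 lower, where 0.0150% of all rows were called lower, and 0 higher, where 0.357% were called higher). The lowest adjusted p was 0.206. At an unadjusted p under 0.05, 29 rows (50.9%) were lower, where 2.29% of all rows were, and 0 were higher, where 5.01% were. In 30 rows (52.6%) every treatment array lay below every control array, which held for 7.10% of all rows and for 10.0% of rows above the median mean intensity. In 0 rows did every treatment array lie above every control array, which held for 7.47% of all rows. With an intensity trend in the variance prior, 4 rows passed as lower: H3C2 (limma, adjusted p = 0.00709), H3C11 (0.0094), H4C3 (0.0161) and H2BC7 (0.0306). In that setting 15 of all 33297 rows (0.0450%) were called lower, and 159 were called in either direction, beside 124 in the fit without the trend.

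**Figure D1:**
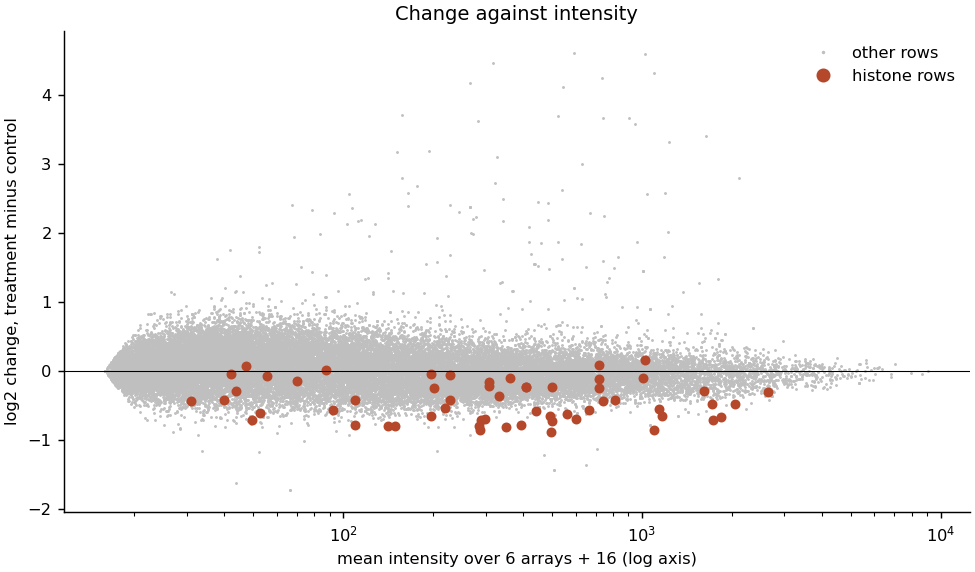
Each point is an array row; the horizontal axis is its mean intensity over the 6 arrays plus 16 (log axis) and the vertical axis its log2 change, treatment minus control. The 57 histone rows (large points) lie mostly below 0 at dim and bright intensities, with H2BC7 lowest at -0.88.

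The change was present in each treatment array, though not equally. Set against the mean of the control arrays, the 57 rows had a median of -0.48, -0.54 and -0.35 in treatment replicates 1, 2 and 3. In control replicates 1, 2 and 3 it was -0.05, 0.06 and -0.03. Over all 33297 rows the same medians were 0.06, 0.01 and -0.05 in the treatment arrays and -0.04, -0.003 and 0.04 in the control arrays. Histone rows were brighter than most, and rows above the median mean intensity had medians of 0.02, -0.02 and -0.17 in the treatment arrays. In the control arrays these brighter rows had medians of -0.04, 0.007 and 0.04. Among the 30 rows without overlap, treatment replicate 3 was the highest of the treatment arrays in 22 and treatment replicate 2 the lowest in 20. Without treatment replicate 3, 41 of 57 rows had no overlap, beside 14.0% of all rows, and 34 were lower at an unadjusted p under 0.05.

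**Figure D2:**
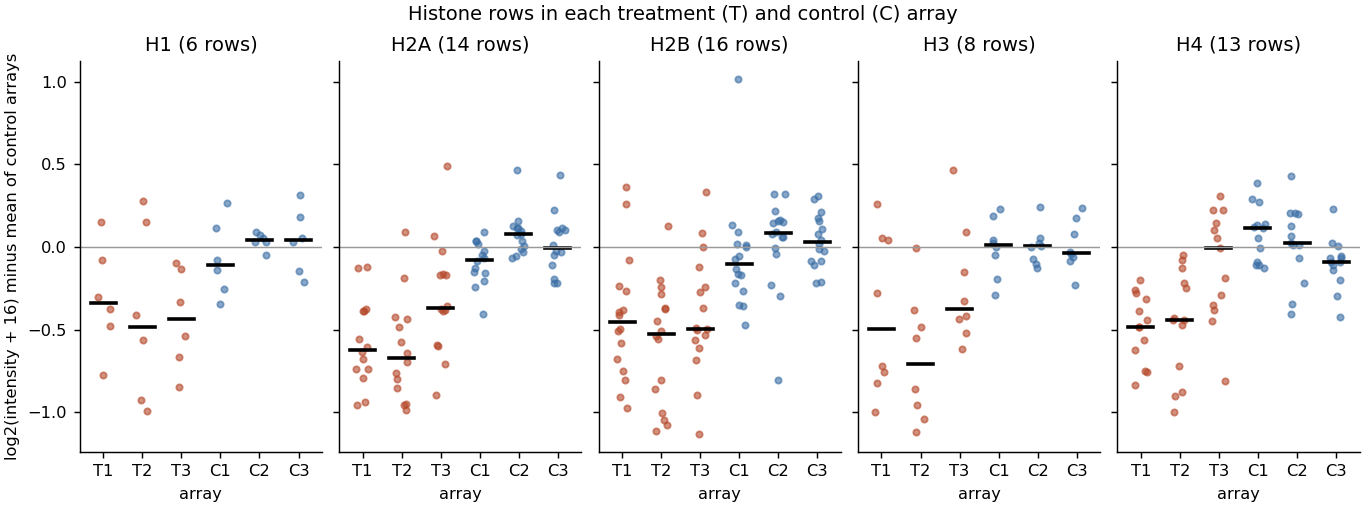
Each point is a histone row in 1 array, drawn as log2(intensity + 16) minus the mean of the control arrays, by histone class; T1 to T3 are treatment and C1 to C3 control replicates, and bars are medians. Treatment medians lie below control medians in H1, H2A, H2B and H3, while H4 in treatment replicate 3 has a median of -0.01.

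H2BC7, an H2B gene of the chromosome 6 cluster, had the lowest p. It gave 364, 302 and 326 in treatment arrays against 590.3, 527 and 773 in control arrays. Treatment arrays were thus at 52.5% of the control mean, with no overlap. The log2 change was -0.88 ± 0.211 (SE; 95% interval -1.34 to -0.43; limma, adjusted p = 0.206).

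H1-3, which encodes a somatic linker histone, gave 245, 208 and 265 in treatment arrays and 467, 439.8 and 387 in control arrays. All treatment values were below all control values, and the mean was 55.5% of control (log2 change -0.81 ± 0.200, SE; limma, adjusted p = 0.241). H2AC12, an H2A gene, gave 200.5, 169.6 and 205 in treatment and 297, 375 and 368 in control arrays, again without overlap (-0.80 ± 0.201; limma, adjusted p = 0.267). The H2B gene H2BC5 gave 170.4, 157 and 237 in treatment and 350.1, 410.1 and 299 in control arrays. Its groups stayed apart, with treatment replicate 3 nearest to the controls (-0.86 ± 0.220; limma, adjusted p = 0.287).

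H3C2, which encodes an H3.1 protein, gave 686, 628 and 1018 in treatment arrays against 1406, 1390 and 1355 in control arrays. The controls were close to each other (SD 26.0, beside 211 in treatment), and treatment replicate 3 was the nearest to them. The log2 change was -0.85 ± 0.220 (SE; limma, adjusted p = 0.300). H2AC17 gave 63.7, 55.4 and 74.9 in treatment and 108, 116 and 145 in control arrays, without overlap and with treatment replicate 3 again nearest to the controls (-0.78 ± 0.205; limma, adjusted p = 0.322).

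**Figure D3:**
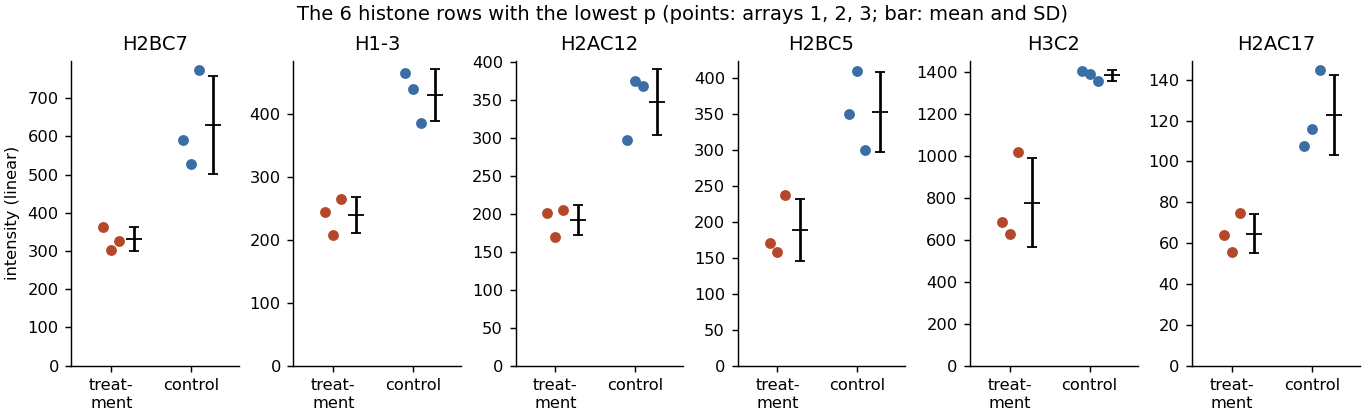
Intensity (linear, vertical axis from 0) of the 6 histone rows with the lowest p in each array; points are replicates 1, 2 and 3 of treatment (left) and control (right), with the mean and SD beside them. In all 6 rows the highest treatment array lies below the lowest control array.

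The promoter windows of some of these genes are shown because H2A and H2B genes share a sequence element that was not found in the windows of the other classes. RefSeq held a window (GRCh38.p14, 250 bases before to 50 after the start) for 52 of the 57 genes. The windows printed here are those of H2BC7 (chr6:26199266-26199565, plus strand), H2BC5 (chr6:26157871-26158170, plus strand), H2BC12 (chr6:27146809-27147108, minus strand), H3C2 (chr6:26032050-26032349, minus strand) and H4C2 (chr6:26027234-26027533, minus strand). Capitals mark ATTTGCAT (the octamer, bound by OCT factors), CCAAT and TATAAA on either strand. H2BC7 (with the octamer) and H2BC5 (without it) were among the lowest H2B rows. Among H2B rows with a single symbol, H2BC12 is the row with a positive change.
H2BC7: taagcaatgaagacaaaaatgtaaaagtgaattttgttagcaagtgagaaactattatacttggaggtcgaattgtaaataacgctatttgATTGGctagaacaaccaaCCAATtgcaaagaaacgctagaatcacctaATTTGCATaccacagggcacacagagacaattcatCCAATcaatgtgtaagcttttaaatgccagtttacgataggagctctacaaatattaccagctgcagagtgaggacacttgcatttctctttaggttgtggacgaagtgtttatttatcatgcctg
H2BC5: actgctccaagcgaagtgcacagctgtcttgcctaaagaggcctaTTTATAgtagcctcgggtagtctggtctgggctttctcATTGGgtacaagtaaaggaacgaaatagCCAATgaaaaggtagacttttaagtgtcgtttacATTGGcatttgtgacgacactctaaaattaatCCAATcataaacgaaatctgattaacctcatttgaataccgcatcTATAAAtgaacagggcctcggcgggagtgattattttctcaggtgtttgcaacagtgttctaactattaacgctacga
H2BC12: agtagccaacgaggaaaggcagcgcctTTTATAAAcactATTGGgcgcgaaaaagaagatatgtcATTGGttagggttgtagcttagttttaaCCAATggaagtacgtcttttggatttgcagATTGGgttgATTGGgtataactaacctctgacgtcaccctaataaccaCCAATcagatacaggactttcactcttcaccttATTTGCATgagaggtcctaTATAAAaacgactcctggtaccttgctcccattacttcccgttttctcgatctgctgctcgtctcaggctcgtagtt
H3C2: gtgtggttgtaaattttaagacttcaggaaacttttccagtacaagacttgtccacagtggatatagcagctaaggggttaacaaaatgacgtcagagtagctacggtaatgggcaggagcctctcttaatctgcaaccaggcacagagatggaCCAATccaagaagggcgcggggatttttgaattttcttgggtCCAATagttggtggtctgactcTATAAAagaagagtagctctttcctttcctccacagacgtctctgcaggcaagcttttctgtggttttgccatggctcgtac
H4C2: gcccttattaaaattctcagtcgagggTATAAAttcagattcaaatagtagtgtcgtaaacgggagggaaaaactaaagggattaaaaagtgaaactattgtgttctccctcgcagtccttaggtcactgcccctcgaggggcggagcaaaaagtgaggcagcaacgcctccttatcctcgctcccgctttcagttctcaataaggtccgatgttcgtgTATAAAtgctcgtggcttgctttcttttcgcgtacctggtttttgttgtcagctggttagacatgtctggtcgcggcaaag

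The octamer ATTTGCAT was in 13 of 16 H2B windows and 10 of 13 H2A windows, and in 0 of 6 H1, 0 of 6 H3 and 0 of 11 H4 windows. It was in 1.80% of 27305 promoter windows of all genes. CCAAT was in 84.6% of the members' windows and 35.7% of all windows, TATAAA in 34 of 52 and 3264 of 27305, and TTTNNCGC, an E2F-like motif, in 32.7% and 6.90%. Each motif was searched on both strands and counted independently of overlap with the others. Of the 23 members with the octamer, 13 had no overlap between groups and their median log2 change was -0.47, beside 13 of 29 and -0.43 for members without it. With TATAAA 20 of 34 had no overlap (median -0.57), and without it 6 of 18 (-0.23). These pooled splits mix the histone classes. Within H2B, 6 of 13 with the octamer (median -0.42) and 3 of 3 without it (-0.80) had no overlap, as did 6 of 12 with TATAAA (-0.42) and 3 of 4 without it (-0.51). In each of H1, H2A, H3 and H4 the share without overlap was instead larger with TATAAA than without it, on few windows each. The splits were not tested.

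Of the 6 linker histone rows, 5 had a negative change and 3 had no overlap, with a median of -0.44. H1-2 gave 1005, 732 and 961 in treatment and 1330, 1457 and 1432 in control arrays (-0.65 ± 0.204, SE; limma, adjusted p = 0.528). H1-1, expressed in few tissues, gave 622, 519 and 421 against 646, 812 and 878 in control arrays, apart by a narrow margin between treatment replicate 1 and control replicate 1. H1-4 gave 2234, 2178 and 2641 in treatment and 2635, 3091 and 3010 in control arrays. Its groups overlapped through treatment replicate 3 (-0.31, 95% interval -0.73 to 0.12; limma, adjusted p = 0.742). H1-5 was dim, with means of 32.2 ± 4.60 and 30.6 ± 10.4 in treatment and control arrays, and the testis-type H1-6 averaged 25.5 ± 8.94 and 26.5 ± 7.26 (SD, n = 3 each).

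H2A rows had the lowest class median, -0.56, and the largest share without overlap, 10 of 14 (71.4%). H2AC13 gave 461, 395 and 476 in treatment and 702, 699.7 and 780 in control arrays (-0.69 ± 0.195, SE; limma, adjusted p = 0.397). H2AC21, from the chromosome 1 cluster, gave 237, 233 and 359.8 against 488, 532 and 414. H2AC8 gave 1539, 1501 and 2091 in treatment and 2250, 2515 and 2306 in control arrays, with treatment replicate 3 closest to the controls (-0.47 ± 0.207; limma, adjusted p = 0.680). The other 4 H2A rows overlapped: H2AC20 (-0.30), H2AC25 (-0.24), H2AC1 and H2AC16. H2AC16 gave 860, 999 and 1320 in treatment and 787, 1297 and 803 in control arrays, overlapping values with a change of 0.15 (95% interval -0.38 to 0.68). H2AC1, a testis-type H2A, gave 276, 264 and 269 against 225, 297 and 416, also overlapping.

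Among 16 H2B rows, 15 had a negative change, 9 had no overlap, and the median was -0.43. H2BC13 gave 85.5, 69.9 and 103.9 in treatment and 122, 205 and 166 in control arrays. H2BC8 gave 179.6, 195 and 268 in treatment arrays, against control values that were close together at 356, 350.1 and 349 (-0.69 ± 0.209, SE; limma, adjusted p = 0.486). H2BC11 averaged 617 ± 74.2 in treatment and 835 ± 86.3 in control arrays (SD, n = 3 each), without overlap (-0.43 ± 0.200; limma, adjusted p = 0.687). H2BC12 had the only positive change in this class. It gave 812, 741 and 621 in treatment and 579, 748 and 714 in control arrays, so the groups overlapped (0.09, 95% interval -0.36 to 0.53). A brighter row shared by H2BC12, H2BC12L, H2BC17 and H2BC5 gave -0.45 (95% interval -0.93 to 0.03), also with overlap. The testis-type H2BC1 was near the floor and scattered, at 35.9, 2.66 and 12.5 in treatment and 65.6, 7.10 and 18.9 in control arrays.

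Of 8 H3 rows, 4 had no overlap and the median was -0.50. H3C11, another H3.1 gene, gave 1252, 1089 and 1587 in treatment arrays and 2193, 2161 and 2040 in control arrays (-0.71 ± 0.207, SE; limma, adjusted p = 0.441). H3C1 gave 89.8, 75.1 and 114.7 in treatment arrays and 147, 205 and 166 in control arrays. H3C7 gave 301, 271 and 453 against 596, 505 and 428, overlapping through treatment replicate 3 (-0.58). H3C10, H3C8 and H3C3 also overlapped, with changes of -0.10, -0.07 and 0.01 and 95% intervals reaching from -0.57 to 0.54 between them. H3C8 and H3C3 were dim, averaging 39.0 and 73.0 in treatment and 40.1 and 69.5 in control arrays.

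H4 rows, most of which encode an identical protein, all had a negative change, with a median of -0.23 and no overlap in 4 of 13. H4C3 gave 1323, 1212 and 1714 in treatment and 2326, 2257 and 2130 in control arrays (-0.67 ± 0.206, SE; limma, adjusted p = 0.507). H4C2 gave 329, 292 and 467 against 727, 611 and 486, with treatment replicate 3 just below control replicate 3. H4C13 (-0.10), H4C6 (-0.11) and H4C9 (-0.06) overlapped. The class median relative to control was -0.48, -0.44 and -0.01 in treatment replicates 1, 2 and 3, so the third array differed from the others here. In the H2B rows the same medians were -0.45, -0.52 and -0.50. Differences between classes were not tested.

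The rows lay on chromosomes 1, 6 and 12, in 7 blocks separated by gaps of over 200000 bases or by chromosome. The block of the main chromosome 6 cluster, from H1-1 to H4C8, held 29 rows, of which 17 had no overlap and 28 were negative (median -0.57). A chromosome 6 block from H2BC13 to H2BC17 held 13 rows, 8 without overlap (median -0.54), and one from H2BC11 to H2AC12 held 5, with 3 (median -0.43). The chromosome 1 block from H4C14 to H2AC21 held 5 rows, 1 without overlap (median -0.23), although H4C14 and H4C15 had equal values on all arrays and are 1 measurement. The chromosome 1 block from H2AC25 to H2BC26 held 2 rows, 1 without overlap (median -0.33). The chromosome 6 block of H2AC1 and H2BC1 held 2 rows, 0 without overlap (median -0.29). H4C16 on chromosome 12 gave a change of -0.14. Block differences were not tested.

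**Figure D4:**
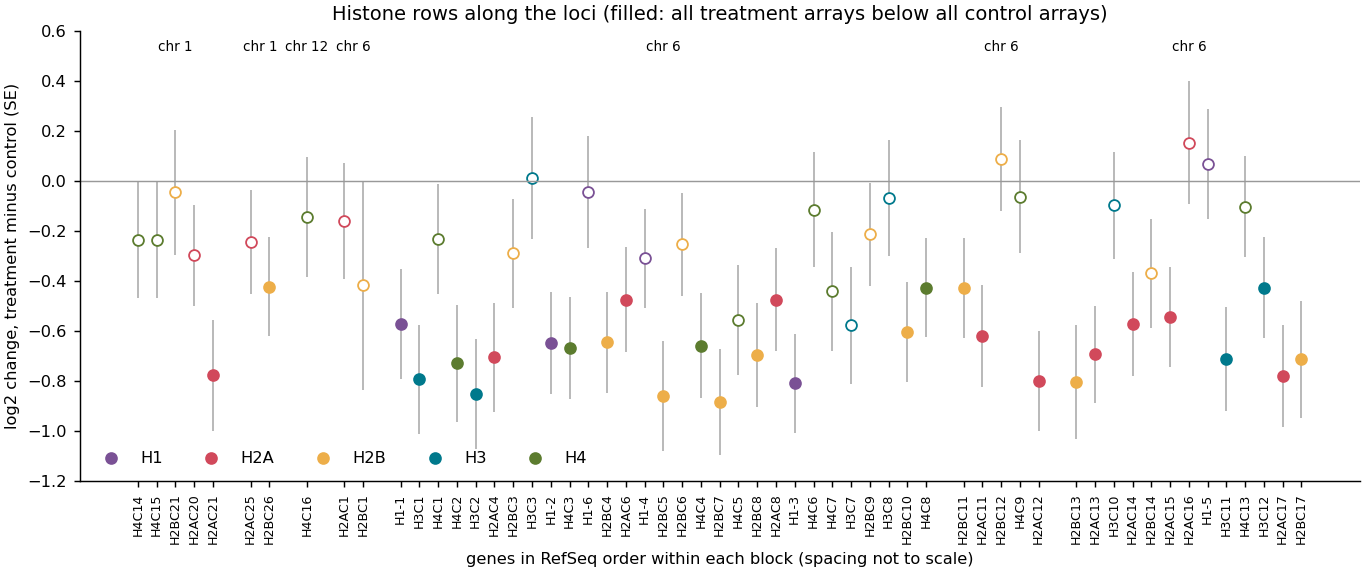
Log2 change, treatment minus control, with its SE, for the 57 histone rows in RefSeq order within each block, coloured by histone class. Filled points are rows in which all treatment arrays lay below all control arrays, and open points are the other rows. Most filled points lie on chromosome 6, as do most of the 57 rows.

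H2A and H2B genes often start back to back. RefSeq placed 9 such pairs of members on opposite strands, with 215 to 248 bases between their starts, so their promoter windows overlap and an octamer can be counted in both. In all 9 both changes were negative, and in 5 both partners had no overlap. Of all members of the 2 classes, 13 of 14 H2A and 15 of 16 H2B rows were negative. No overlap was seen in 10 of 14 H2A and 9 of 16 H2B rows. Whether partners changed together beyond these shares was not tested. The pair H2AC17 and H2BC17 gave changes of -0.78 and -0.71, H2AC13 and H2BC13 gave -0.69 and -0.80, and H2AC8 and H2BC8 gave -0.47 and -0.69. The pair H2AC20 and H2BC21 of chromosome 1 gave -0.30 and -0.05, both with overlapping groups. Brighter rows that H2BC21 shares with other genes gave -0.55 and -0.46 without overlap. The values that H2AC20 shares with other genes gave -0.14, with overlap.

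Probes of near-identical histone genes can read each other's transcripts, so values of single rows are uncertain. Of the 20 shared rows, 15 had values of their own, and 10 of these 15 had no overlap, with a median of -0.55. The row shared by H3C13, H3C14 and H3C15 with the lowest p gave 399, 389.8 and 468 in treatment and 610.1, 685 and 679 in control arrays (-0.63 ± 0.195, SE; limma, adjusted p = 0.507). The row shared by H2AC18, H2AC19, H2AC20 and H2AC21 gave 1939, 1881 and 2192 against 1888, 2273 and 2478, with overlap (-0.14). H3-4 (older name HIST3H3), which the pattern does not take in, averaged 197 ± 46.0 and 172 ± 14.0 in treatment and control arrays, and the pseudogene H2BC19P averaged 30.2 ± 3.37 and 33.1 ± 12.5 (SD, n = 3 each).

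Replication-independent variants, which are made outside S phase from polyadenylated mRNAs in most cases, had a median change nearer to 0. Of 12 measured, 0 passed limma (0 at an unadjusted p under 0.05) and the median was -0.07. The direction was mostly that of the histone rows, with 10 changes negative and 2 positive. Relative to control the median was -0.19, -0.08 and -0.14 in treatment replicates 1, 2 and 3. In control replicates 1, 2 and 3 it was 0.02, -0.05 and -0.06. H2AX, the variant phosphorylated at DNA breaks, was the only row of the 12 without overlap, at 655, 647.5 and 805 in treatment and 952, 974 and 866 in control arrays (-0.40 ± 0.198, SE; limma, adjusted p = 0.697). H2AX mRNA is made in both forms, with and without a tail. H3-3B gave -0.07 (95% interval -0.50 to 0.35), H2AZ1 -0.24, H2BW1 -0.27 and H1-10 -0.17.

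Genes that make and remove histone mRNA showed no passing change either. Of 24 measured genes of transcription and 3' end processing, 0 passed limma (0 at an unadjusted p under 0.05; median -0.05), and the lowest p were those of CSTF2 (-0.39) and LSM10 (-0.42). NPAT, the coactivator of histone genes under cyclin E, gave 1131, 1076 and 750.6 in treatment and 765, 936 and 943 in control arrays, overlapping (0.14, 95% interval -0.33 to 0.62). SLBP gave 734, 671 and 432 against 511, 659.9 and 807 (-0.11, -0.65 to 0.42), and CASP8AP2 (FLASH) gave 0.12 (-0.36 to 0.61). In all 3 the third treatment replicate was the lowest of the treatment arrays, the reverse of its place in most histone rows. The most changed decay gene, the 5' exonuclease XRN1, averaged 636 ± 83.2 in treatment and 398 ± 64.0 in control arrays (SD, n = 3 each), without overlap (0.66 ± 0.208, SE; limma, adjusted p = 0.528), and CTIF gave -0.52. The 23 decay genes had a median of -0.11, and at an unadjusted p under 0.05 1 was lower and 1 higher.

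The medians of the cell-cycle lists were nearer to 0 than that of the histone rows. Over 47 DNA replication genes the median was -0.13 and 8 had lower treatment values without overlap, among them GINS2 (-0.42) of the replicative helicase and POLD2 (-0.41), while PCNA, the polymerase clamp, gave 0.15 (95% interval -0.27 to 0.56). Over 30 mitosis genes the median was -0.19, with 27 changes negative. Of them 7 genes (23.3%) were lower without overlap, a share above the 7.10% of all rows. The mitosis median relative to control was 0.01, -0.10 and -0.46 in treatment replicates 1, 2 and 3, with the lowest p for AURKB (-0.36) and CDC25C (-0.39). MKI67, the proliferation marker, gave 1998, 1434 and 1238 in treatment and 1231, 1359 and 1853 in control arrays, with overlap. Of 29 chaperone and import genes the median was -0.10 (lowest p for TONSL, -0.44, and VPS72, -0.36), and of 13 cell-cycle inhibitors 0.01 (GADD45B, 0.27, and GADD45A, 0.27). Lower without overlap were 4 (13.8%) of the chaperone and import genes and 0 of the inhibitors. In these 4 lists 0 genes passed limma over all rows, and 1, GINS2, was lower at an unadjusted p under 0.05. The part of these lists in the histone values was not tested.

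**Figure D5:**
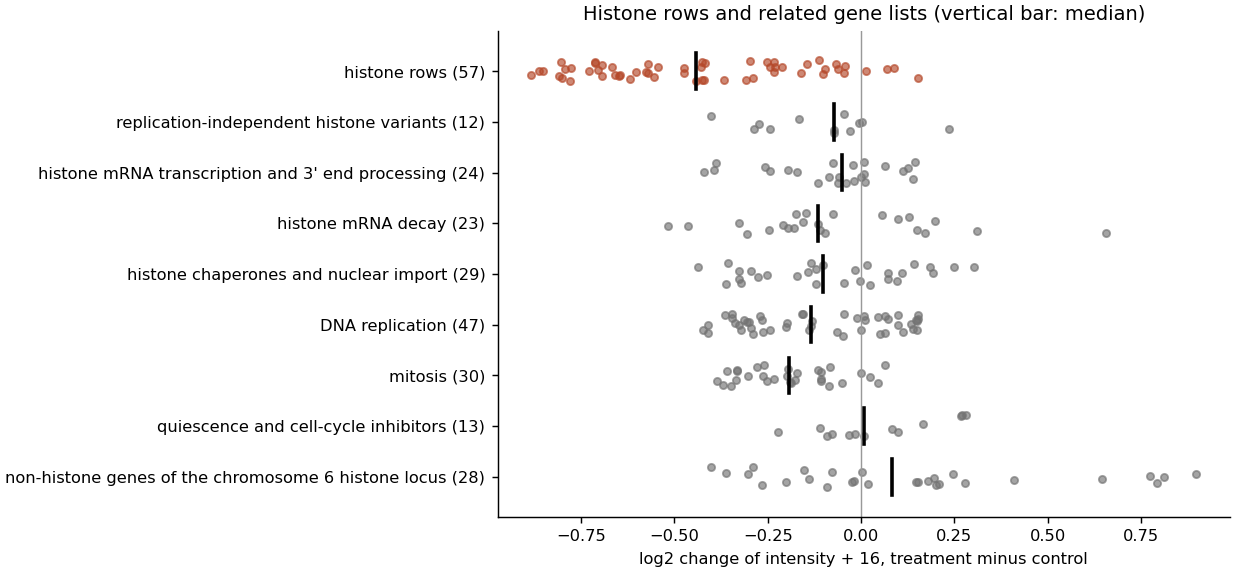
Log2 change, treatment minus control, of the histone rows and of each gene in related lists (number in brackets), with the median as a vertical bar. The histone rows have a median of -0.44, and the medians of the other 8 lists drawn lie between -0.19 and 0.08; the short RNAs without a poly(A) tail, with a median of -0.33, are not drawn.

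Non-histone genes of the same chromosome 6 region had a median of the opposite sign, 0.08, though not in treatment replicate 3. Relative to control the median was 0.21, 0.16 and -0.17 in treatment replicates 1, 2 and 3. In control replicates 1, 2 and 3 it was -0.06, 0.02 and 0.11. Of 28 measured, 0 passed limma. At an unadjusted p under 0.05, 5 of the 28 were higher, beside 5.01% of all rows, and 0 lower, beside 2.29%. In 6 of the 28 all treatment values lay above all control values, beside 7.47% of all rows. In 1 (3.57%) they lay below, beside 7.10% of all rows. TRIM38, a ubiquitin ligase gene, gave 426, 577 and 506 in treatment and 262, 248 and 272 in control arrays (0.90 ± 0.201, SE; limma, adjusted p = 0.136). It passed without rows below the median mean intensity (limma, adjusted p = 0.0444) and with an intensity trend in the variance prior (0.0366). The butyrophilin gene BTN3A3 averaged 113 ± 21.5 and 56.8 ± 6.53 (SD, n = 3 each) in treatment and control arrays. Among 6 measured short RNAs without a poly(A) tail, among them RNU5A-1 (-0.50) and TERC (0.48), the median was -0.33, at -0.43, -0.56 and 0.23 in treatment replicates 1, 2 and 3.

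Among 11178 rows of other genes with a mean intensity above 100, the profiles most like the mean of the histone rows over the 6 arrays were those of ROGDI (Pearson's r = 0.995), PHF19 (0.993), NDUFA1 (0.990), CAD (0.988) and SLC25A5 (0.988). These values include the difference between the groups and are a description of 6 arrays. PHF19, for instance, gave 222, 196 and 244 in treatment and 305, 339 and 311 in control arrays.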

How the data were processed

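The authors deposited 1 linear intensity per row and array. Per the submitters' processing notes Partek was used, while the sources used here do not say how background was corrected or arrays normalized. Columns were matched by accession and 0 belonged to another series. Symbols came from the platform annotation and RefSeq changed 0 of them. As the annotation names no build, no row coordinates are given.

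An offset of 16 was added before log2, and limma 3.58.1 in R 4.3.3 (lmFit, eBayes, no block) tested all 33297 rows, two-sided, with Benjamini-Hochberg adjustment and a threshold of 0.05. The fit was tested on simulated data. For genes in lists with several rows, the row with the highest mean was used. Members and lists were chosen with earlier results of these data known. Members given with full statistics were the 6 of lowest p, the 3 with the highest mean, the highest of each class, the 3 largest positive changes and 3 testis-type genes, and any other member could be named. From the other lists the 2 genes of lowest p and fixed genes were named. H3-3A was not analysed here, having no row with a single symbol. No detection calls were used, so a dim row is not called absent, and the number of arrays limits precision. Same-numbered arrays did not deviate together (r of deviations -0.17, 0.08 and -0.36), so numbers were not taken to pair arrays. The highest values were for unlike numbers: 0.36 for treatment replicate 1 with control replicate 3, and 0.22 for treatment replicate 3 with control replicate 1. The other pairs of unlike numbers gave -0.19 to 0.11. Alternatives were the replicate block, offsets, normalization, filters, variance priors and leaving out each array.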

Additional observations from a re-analysis of the deposited data

How the results depend on the processing

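The median histone change kept its sign under every alternative run, from -0.51 without rows below the median mean intensity to -0.41 with an offset of 50. The 0 histone rows past the threshold became 4 with an intensity trend in the variance prior, where 159 of all rows were called, and stayed 0 under the other alternatives. Histone rows at an unadjusted p under 0.05, 29, ran from 21 without treatment replicate 2 to 34 without treatment replicate 3, and were 26 with the replicate block. Rows lower without overlap, 30, ran from 31 to 41 when each array was left out, an alternative added after the data were seen. The share over all rows ran from 9.29% to 14.0%. Leaving out an array can keep or raise such a count but never lower it, so these ranges do not show that the count is stable. Rows called among all, 124, numbered 40 without an offset, 58 when 1 was added, 105 with the replicate block, and 69 to 129 with an array left out (69 without control replicate 1, 82 without treatment replicate 2). Small changes turned sign: H1-5 was -0.050 with quantile normalization. With an array left out, changes ran from -0.014 to 0.385 for H2AC16, -0.021 to 0.193 for H2BC12, -0.103 to 0.224 for H1-5, -0.206 to 0.101 for H1-6, -0.363 to 0.0586 for H2AC1 and -0.820 to 0.0906 for H2BC1. The replicate block changed no histone call.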
